A study of Mus musculus with 6 samples.

Results

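The Serpina3 cluster is a run of closely related protease inhibitor genes on mouse chromosome 12, and 6 of its genes are described here: Serpina3a, Serpina3b, Serpina3g, Serpina3k, Serpina3m and Serpina3n. They were chosen by name, as every non-control probe whose listed gene is one of the 6, which gave 6 of the 28477 gene names and 7 of the 41174 probes on the array (Serpina3k has 2). The names were picked with their ligated and contralateral signals already known, so the levels of the members are a description and carry no test. The samples were both kidneys of 3 CD-1 mice (495, 485 and 512), an outbred stock, each kidney on an Agilent array of its own read in 1 colour, Cy3 (6 arrays in all). In every mouse the left ureter had been tied completely (unilateral ureteral obstruction, a model of renal fibrosis), and its untied right kidney was the contralateral control; no other genotype or agent is named. How long the ureter stayed tied is not stated in the labels used here, which call the material kidney in one field and primary cells in another. The contralateral kidney shares the circulation of an animal whose other kidney is obstructed, so it is no kidney of an unoperated mouse.

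Serpins trap a protease by offering a reactive loop that, once cut, snaps into the inhibitor's body and holds the enzyme in a dead complex. Clade A serpins are mostly secreted by the liver into plasma, and the human genome holds 1 SERPINA3 gene, for alpha-1-antichymotrypsin, an acute phase protein, where the mouse holds an expanded tandem cluster. Among the mouse products, Serpina3n is a secreted inhibitor known to block granzyme B and leukocyte elastase, Serpina3g (also called Spi2A) is an intracellular inhibitor of lysosomal cysteine cathepsins in leukocytes, and Serpina3k is a plasma protein made chiefly in liver that binds tissue kallikrein. Cytokine signals of inflammation, through STAT3 and NF-kappaB, are known to drive several genes of the cluster.

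Because the genes are near-identical in places, the probe sequences decide what each value can stand for, and they are shown for that reason, 5′ to 3′, as the array design gives them (no base is in capitals).
Serpina3a probe A_51_P125779, chr12:104522617-104522676 (mm8, + strand): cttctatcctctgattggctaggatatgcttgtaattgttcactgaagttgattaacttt
Serpina3b probe A_51_P175442, chr12:104539897-104539956 (mm8, + strand): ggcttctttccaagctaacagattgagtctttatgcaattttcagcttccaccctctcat
Serpina3g probe A_51_P326191, chr12:104642885-104642944 (mm8, + strand): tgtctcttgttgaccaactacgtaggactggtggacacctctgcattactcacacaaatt
Serpina3k probe A_52_P319093, chr12:104746485-104746544 (mm8, + strand): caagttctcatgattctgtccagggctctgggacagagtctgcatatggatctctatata
Serpina3k probe A_51_P240036, chr12:104746750-104746809 (mm8, + strand): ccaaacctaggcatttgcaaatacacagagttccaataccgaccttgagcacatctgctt
Serpina3m probe A_51_P358012, chr12:104795182-104795240 (mm8, + strand): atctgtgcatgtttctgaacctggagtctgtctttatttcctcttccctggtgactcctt
Serpina3n probe A_51_P159453, chr12:104814758-104814817 (mm8, + strand): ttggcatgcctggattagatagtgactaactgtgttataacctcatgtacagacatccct
The probes of any pair of members differed by at least 29 edits (substitutions, insertions or deletions) over their 60 bases and shared runs of at most 8 bases. The longest run that any member probe shared with another probe of the array was 15 bases. Transcripts were not used here, so whether a probe also captures a related transcript was not tested, and the members are treated as possibly sharing signal. The exon or UTR each probe lies in was not analysed here.

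Promoter windows were compared to describe likeness around the annotated starts. RefSeq (GRCm38.p6) gave promoter windows of 300 bases around the annotated start for 4 members (Serpina3a, Serpina3b, Serpina3g and Serpina3n), and 3 of them are printed because they share a run of 12 bases, shown in capitals, which is the longest run common to the 3. The run was found by looking at these members and was not sought beforehand.
Serpina3b promoter, chr12:104127746-104128045 (GRCm38.p6, + strand): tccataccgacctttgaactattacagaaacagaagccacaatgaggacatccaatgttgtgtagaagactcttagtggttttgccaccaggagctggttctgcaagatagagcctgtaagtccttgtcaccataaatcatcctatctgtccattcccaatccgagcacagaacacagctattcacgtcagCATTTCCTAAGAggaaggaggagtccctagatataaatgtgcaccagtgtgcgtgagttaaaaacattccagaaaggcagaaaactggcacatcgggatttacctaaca
Serpina3g promoter, chr12:104235897-104236196 (GRCm38.p6, + strand): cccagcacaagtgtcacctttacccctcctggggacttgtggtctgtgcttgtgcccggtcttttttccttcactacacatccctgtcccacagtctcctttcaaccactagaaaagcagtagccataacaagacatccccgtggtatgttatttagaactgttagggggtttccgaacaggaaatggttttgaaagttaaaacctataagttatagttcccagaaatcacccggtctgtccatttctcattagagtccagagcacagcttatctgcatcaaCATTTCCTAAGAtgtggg
Serpina3n promoter, chr12:104406458-104406757 (GRCm38.p6, + strand): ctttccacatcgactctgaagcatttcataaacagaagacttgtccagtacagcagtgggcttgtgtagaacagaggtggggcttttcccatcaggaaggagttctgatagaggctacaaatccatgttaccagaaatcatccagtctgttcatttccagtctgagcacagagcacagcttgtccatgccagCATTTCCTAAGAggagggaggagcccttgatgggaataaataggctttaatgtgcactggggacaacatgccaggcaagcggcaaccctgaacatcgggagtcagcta
Serpina3b was lower in the ligated kidney of all 3 mice and Serpina3n higher in all 3. Compared from the annotated starts, their windows were the most similar of the 4 (67.3% identity by edits, against 42.7% to 46.0% for other pairs). Their run extended to 18 bases, cagcatttcctaagagga, and its 12-base core began at -59 in Serpina3b and -58 in Serpina3n, counted from the annotated start. In Serpina3g the core began at 32, after the start. A run of 13 bases, cagagcacagctt, likewise lay at 8 in Serpina3g and at -82 in Serpina3n. The windows were compared end to end, with no allowance for such an offset. The identity of pairs with Serpina3g therefore does not measure how alike their promoters are. The 12-base core was present, on the gene's strand or its reverse, in 12 of 32851 promoter windows in all. These belonged to 6 of the 8 Serpina3 genes that had a window (also Serpina3c, Serpina3f and Serpina3i) and to 5 other genes.

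The 4 promoters were also searched on both strands for 6 short motifs. The TATA box TATAAA was found at -28 in Serpina3b and -29 in Serpina3a, where it overlaps a match on the other strand, and 13.62% of all promoter windows hold it. The 10-base NF-kappaB motif matched as GGGGGTTTCC in Serpina3g at -85 and as GGGCTTTTCC in Serpina3n at -171, against 1.63% of all windows. The STAT motif TTCNNNGAA matched in Serpina3g alone of the 4, at -33 (8.3% of all windows), the C/EBP motif TTGCNNAA in Serpina3b alone, at -152 on the other strand (10.8%), and the interferon response motif, as TTTCTCTTTC, in Serpina3a alone, at 33 on the other strand (3.44%). The HNF1 motif had no match in the 4 windows (0.06% of all). A match describes letters in these windows and no binding was measured.

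Signal values below are Agilent processed signals, linear and in arbitrary units. Log2 levels are log2 of that signal minus the log2 of its array's 75th percentile, so a level of 0 equals the array's 75th percentile, and they compare arrays within 1 probe, never 1 probe with another. That percentile of the processed signal lay between 671 and 1106 on contralateral arrays and between 1068 and 1432 on ligated ones. Across all 19598 genes above background on every array of at least 1 group, the median difference between ligated and contralateral was -0.01. The contralateral kidney of mouse 512 stood apart from the other contralateral kidneys. The summed level of 10 proximal tubule markers (sum of signals over the 75th percentile) was 573 there against 1795 and 1953 in mice 495 and 485, and that of 10 macrophage markers was 51.4 against 18.5 and 18.0. Values of the measured members are therefore also given without that array. They come from a fit that no longer pairs the kidneys and keeps the ligated kidney of mouse 512.

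The members did not move as a block. Serpina3g and Serpina3n were higher in the ligated kidney of every mouse, Serpina3a and Serpina3b were lower in every mouse, Serpina3m went either way, and Serpina3k was not detected. Of the 5 members above background, 4 had the same direction in all 3 mice, and for 3 the groups did not overlap. Over all genes tested, 72.2% had the same direction in all 3 mice (34.3% higher and 37.9% lower), and 53.5% had groups that did not overlap (24.7% with every ligated kidney above, 28.8% with every one below). These shares are given as the background alone, since the members were chosen on this contrast.

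**Figure D1:**
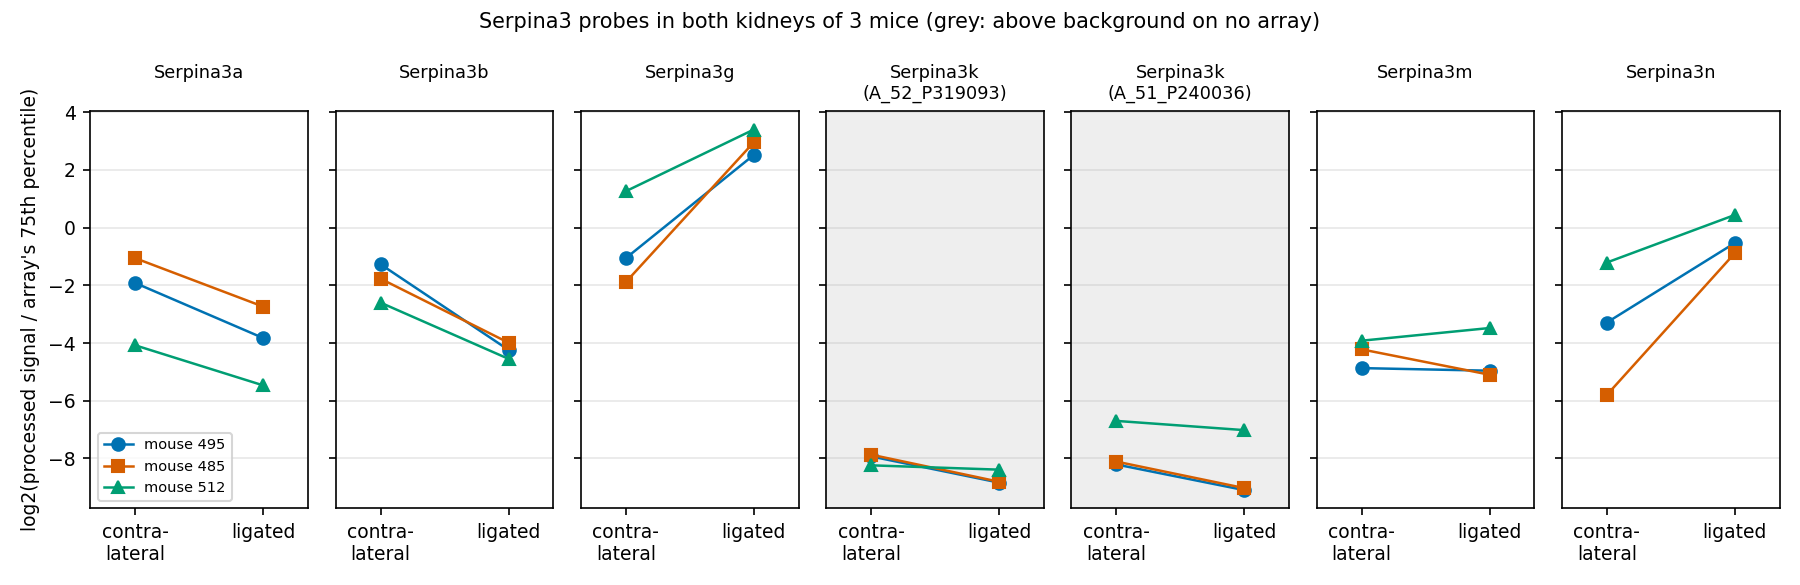
Log2 level (processed signal over the array's 75th percentile) of the 7 probes of the 6 Serpina3 members in the contralateral and ligated kidney of each of 3 mice, with a line joining the kidneys of 1 mouse. Serpina3g and Serpina3n slope upward and Serpina3a and Serpina3b downward in every mouse, and both Serpina3k probes (grey panels) were above background on 0 of 6 arrays.

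Serpina3g, the intracellular cathepsin inhibitor, gave contralateral signals of 355 (mouse 495), 181 (mouse 485) and 2649 (mouse 512) and ligated signals of 7829, 11137 and 11251 in the same order. On the log2 scale the levels were -1.06, -1.89 and 1.26 against 2.52, 2.96 and 3.40. All 3 ligated kidneys lay above all 3 contralateral ones, and the contralateral kidney of mouse 512 lay between the other contralateral kidneys and the ligated group. The differences within mice 495, 485 and 512 were 3.58, 4.85 and 2.14, a mean of 3.52 ± 1.36 (SD, n = 3 mice) or 11.5-fold. The fold ran from 4.4 in mouse 512 to 28.9 in mouse 485. Serpina3g ranked 110 of 19598 genes from the largest rise.
The levels of Serpina3g spanned 3.15 on the log2 scale among contralateral kidneys and 0.87 among ligated ones, wider than in 97.3% and 87.3% of genes. Ranges were wider among contralateral kidneys in general, with a median over all genes of 0.68 against 0.35. The contralateral kidney of mouse 512 was 2.74 above the mean of the other contralateral kidneys and differed from the ligated mean by -1.70. Without that array the mean rise of Serpina3g was 4.44.

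Serpina3n, the secreted granzyme B inhibitor, had signals of 75.8, 12 and 480 in the contralateral kidneys and of 940, 779 and 1453 in the ligated kidneys, in the same order of mice. The contralateral kidney of mouse 485 was not well above background, so 2 of 3 contralateral arrays measured the gene. Its log2 levels were -3.29, -5.80 and -1.21 in contralateral kidneys against -0.53, -0.88 and 0.44 in ligated ones. The lowest ligated kidney lay just above the highest contralateral one, again that of mouse 512, and the groups did not overlap. The differences were 2.75, 4.92 and 1.65, a mean of 3.11 ± 1.67 (SD, n = 3 mice). The value of mouse 485 rests on a contralateral signal that was not well above background, so no fold is given for it or for the mean. The other mice gave 6.74-fold (495) and 3.14-fold (512), and the mean difference without mouse 485 was 2.20. Serpina3n ranked 255 of 19598 from the largest rise, a rank that also rests on the value of mouse 485.
Among the arrays that measured Serpina3n in untied kidneys, mouse 512 was the higher, and in ligated kidneys the range was 1.32. Without the contralateral array of mouse 512 the mean rise was 4.22, and with normexp background correction, which lifts dim signals, it was 1.97.

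Serpina3b, the second gene of the cluster on this array, had signals of 307, 197 and 182 in contralateral kidneys and of 72, 90.2 and 45.6 in ligated kidneys. The log2 levels were -1.27, -1.77 and -2.60 against -4.24, -3.99 and -4.55. Every ligated kidney lay below every contralateral kidney, on the raw signal as on the scaled level. Its differences were -2.97, -2.22 and -1.95, a mean of -2.38 ± 0.53 (SD, n = 3 mice) or 5.21-fold lower. It ranked 202 of 19598 from the deepest fall. The contralateral kidney of mouse 512 was again the one nearest to the ligated group, and without it the mean difference was -2.74.

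Serpina3a, which lies next to Serpina3b at the end of the cluster, had signals of 196, 322 and 65.5 in contralateral kidneys and of 95.6, 214 and 24.1 in ligated kidneys. Its log2 levels were -1.92, -1.06 and -4.08 against -3.83, -2.74 and -5.47. The groups overlapped, because the contralateral level of mouse 512 was below the ligated levels of mice 495 and 485. Within mice the fall was the most even of the 5 members, at -1.92, -1.68 and -1.39, a mean of -1.66 ± 0.26 (SD, n = 3 mice) or 3.17-fold lower. It ranked 734 of 19598 from the deepest fall.
What set Serpina3a apart from Serpina3b was the spread between animals in both kidneys. Its levels spanned 3.02 among contralateral and 2.73 among ligated kidneys, wider than in 96.9% and 99.3% of genes, and the order of the mice (485, 495, 512 from high to low) was the same in both. Without the contralateral kidney of mouse 512, in a fit that no longer pairs the kidneys, the mean difference was -2.53, over 1.5 times as large. With both kidneys of mouse 512 left out and the pairs kept, it was -1.80.

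Serpina3m had signals of 25.4, 36 and 73.3 in contralateral kidneys and of 43.6, 41.7 and 95.8 in ligated kidneys, well above background on all 6 arrays. The log2 levels were -4.87, -4.22 and -3.92 against -4.96, -5.10 and -3.48. The groups overlapped on both scales. The scaled differences were -0.10, -0.88 and 0.44, a mean of -0.18 ± 0.66 (SD, n = 3 mice), which is smaller than its spread. The sign rests on the scaling. The unscaled signal was 1.72, 1.16 and 1.31 times as high in the ligated kidney of mice 495, 485 and 512. The mean difference was 0.16 with arrays centred on spike-in spots and -0.55 with quantile normalization. Without the contralateral kidney of mouse 512 the mean difference was 0.03.

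Serpina3k, the kallikrein-binding plasma serpin, was not well above background on any of 6 arrays with either probe. Its probe A_51_P240036 read 2.50, 2.43 and 10.6 in contralateral and 2.48, 2.74 and 8.25 in ligated kidneys, and A_52_P319093 read between 2.86 and 3.65. No fold is given for it.

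The members' levels over the 6 arrays fell into a rising and a falling pair. Pearson's r was 0.95 between Serpina3g and Serpina3n and 0.76 between Serpina3a and Serpina3b. It was -0.95 between Serpina3b and Serpina3g, -0.90 between Serpina3a and Serpina3n, -0.84 between Serpina3b and Serpina3n and -0.83 between Serpina3a and Serpina3g. Serpina3m had r between -0.51 and 0.13 with the others. These values describe 6 arrays that share 3 animals and 2 kidney states, so a gene that differs between the states correlates with any other that does.

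By the same measure over 6 arrays, the genes most like each member were found among all 19598. Plxdc1 (r = 1.000, rounded), Ccdc102a (0.999) and Dennd1c (0.999) were nearest to Serpina3g, with differences of 2.27, 3.01 and 1.30 for Plxdc1 in mice 495, 485 and 512, the same order of mice as in Serpina3g. Camk1 (0.999), AK088332 (0.998) and Slco2a1 (0.998) were nearest to Serpina3n. Qrsl1 (0.999), NAP045839-1 (0.998) and Olfr933 (0.998) were nearest to Serpina3b, and TC1752739 (0.996), Osbpl11 (0.996) and Ches1 (0.995) to Serpina3a, although the mean difference of Osbpl11 was only -0.17. Patterns like those of Serpina3g and Serpina3b were common: 1956 and 1916 genes reached r of 0.95 with them, against 983 for Serpina3n and 172 for Serpina3a. Serpina3m had 8 such genes, led by LOC668950 (0.979), 1500032F14Rik (0.974) and Ess2 (0.972).

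Between the outermost members on chromosome 12 the array held 8 further probes under 7 names, and they place the members among their neighbours. Of these, 5 probes under 4 names were above background on every array of at least 1 group. For these and for the lists below, changes were tested with limma (mouse as a fixed block, Benjamini-Hochberg adjustment over 19598 genes), which called 16.0% of genes higher and 14.7% lower, 30.7% in all. A gene that was above background on all ligated arrays but on few or no contralateral ones entered the fit through the group in which it is high. The filter favours a rise in such a gene, so where at most 1 contralateral array measured it, a lower bound is given with no p. The neighbours were chosen by position, but earlier results of the same arrays were known. In the lists below, counts under other settings stand against other totals over all genes. Called were 11022 of 19598 genes without mouse 512, 11034 without its contralateral kidney and 2662 of 28467 with no filter on dim probes. Spike-in centring gave 2388 higher and 654 lower, normexp 1992 and 2787. Among genes above background on all 6 arrays, 5801 of 17353 were called.

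Serpina3f, whose probes lie just before Serpina3g, was higher in the ligated kidney of every mouse. Its probe A_52_P419678 gave signals of 13.6, 8.79 and 51.8 in contralateral kidneys and of 195, 332 and 289 in ligated kidneys. The groups did not overlap, with differences of 2.96, 4.15 and 2.53. As 1 of 3 contralateral arrays was well above background, Serpina3f was at least 8.51-fold higher, and it is not tested where genes had to be above background on all 6 arrays. Its other probe gave a mean difference of 3.55. EG667984, between Serpina3b and Serpina3f, was at least 5.29-fold higher, with signals of 10.2, 11.2 and 82.5 against 128, 201 and 238 and 1 of 3 contralateral arrays above background. AK019935, just after Serpina3g, was at least 1.93-fold higher, with 1 of 3 contralateral arrays above background and groups that overlapped. In all of these the contralateral kidney of mouse 512 was the brightest untied kidney, as in Serpina3g and Serpina3n.

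Farther along the cluster the signal was faint. EG238395, an older name of Serpina3j, was at least 1.67-fold higher, with 0 of 3 contralateral arrays above background. It entered the fit through the ligated group alone, so no p is given for it. EG628916, an older name of Serpina3l-ps, had signals of 20.4, 16.6 and 16.7 in contralateral and 19.9, 7.84 and 4.84 in ligated kidneys and was not tested, as was Serpina3c, above background on 1 of 6 arrays, and BI329779, on 0. In position, the measured members and neighbours that were above 0 in all 3 mice lay from EG667984 to EG238395 and again at Serpina3n. Those below 0 in all 3, Serpina3a and Serpina3b, lay together at the other end. This order rests in part on the filter. EG667984, Serpina3f, AK019935 and EG238395 were above background on at most 1 contralateral array and entered through the group in which they are high. EG628916, between Serpina3k and Serpina3m, was below 0 in all 3 mice (-0.91, -2.17 and -1.74) but was left out by the filter.

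**Figure D2:**
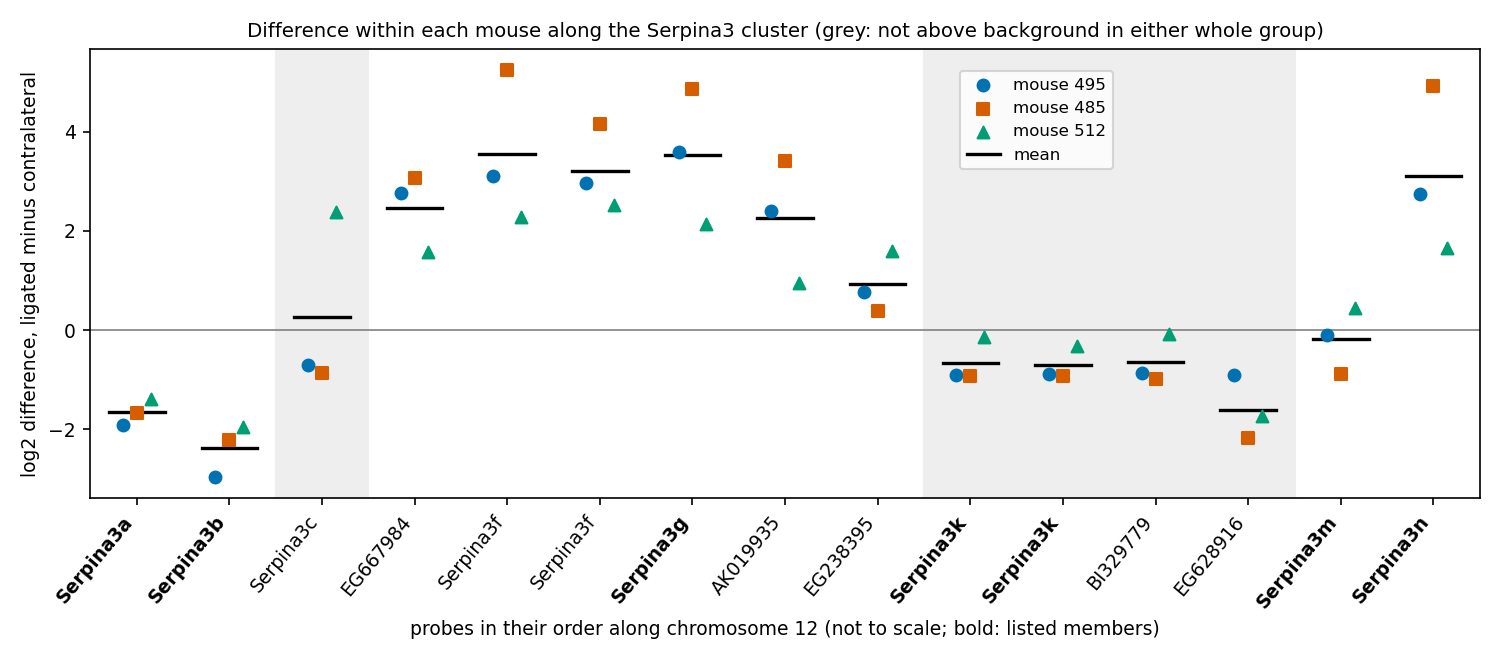
Log2 difference (ligated minus contralateral kidney) within each of 3 mice for the 15 probes of the Serpina3 cluster in their order along chromosome 12, with the mean as a black bar. Points for Serpina3a and Serpina3b lie below 0 in every mouse, those from EG667984 to EG238395 and at Serpina3n lie above 0 in every mouse, and grey bands mark probes not above background in either whole group.

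Other inhibitors of the serpin superfamily give the members their setting. Of 7 measured clade A serpins outside the cluster, 3 rose and 0 fell (median 1.61), against 16.0% and 14.7% of all genes. The risers were Serpina1b (1.76 ± 0.32 SE, limma adjusted p = 0.0325), Serpina1d (1.61 ± 0.26, adjusted p = 0.03) and Serpina1e (1.56 ± 0.33, adjusted p = 0.039), near-identical alpha-1-antitrypsin genes whose probes may share signal. Their differences in mouse 512 were 2.46, 2.05 and 2.27, the largest of the 3 mice in each, where Serpina3g and Serpina3n had their smallest. With mouse 512 left out 6 rose, without its contralateral kidney 5, and with no filter on dim probes 1.
Of 14 measured serpins of other clades, 7 rose and 1 fell (median 1.33), against 16.0% and 14.7% of all genes. Serpinf1, which encodes pigment epithelium-derived factor, rose by 2.92 ± 0.18 SE (limma adjusted p = 0.0221) and Serping1, the C1 inhibitor of complement, by 2.84 ± 0.28 (adjusted p = 0.0221). Serpinf2, the plasmin inhibitor alpha-2-antiplasmin, fell by 2.44 on the log2 scale (SE 0.25, adjusted p = 0.0221). The counts were 10 higher and 2 lower without mouse 512.

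A list of serine and cysteine proteases held known targets of serpins and related enzymes, not all of them established targets of clade A3 serpins. Of 15 measured, 6 rose and 2 fell (median 1.14), against 16.0% and 14.7% of all genes. Among genes above background on all 6 arrays 3 rose. Gzmk, a granzyme of cytotoxic lymphocytes, was at least 3.62-fold higher, with 0 of 3 contralateral arrays above background, and Gzmb, the granzyme that Serpina3n blocks, at least 4.07-fold, with 1 of 3. Among the cysteine cathepsins, Ctss rose by 3.23 ± 0.37 SE (limma adjusted p = 0.0233) and Ctsk by 3.15 ± 0.22 (adjusted p = 0.0221), while Ctsb, a known target of Serpina3g, had -0.30 ± 0.24 (adjusted p = 0.362) and Ctsl 0.19 ± 0.32 (adjusted p = 0.656). The 2 that fell were Prss8 and Tmprss2, membrane-bound serine proteases of epithelia and no established targets of clade A3 serpins, which fell by 1.57 and by 1.02 on the log2 scale (-1.57 ± 0.17 and -1.02 ± 0.14 SE, limma adjusted p = 0.0231 and 0.0267). Ctsg, the cathepsin G that human SERPINA3 inhibits, was not above background in either whole group, nor were Elane and Mcpt8. With normexp background correction 3 rose, and with spike-in centring 0 fell.

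Acute phase genes are the class that human SERPINA3 belongs to. Of 27 measured, 6 rose and 1 fell, a share near the background of 30.7%, and the median difference was 1.99. Hp, for haptoglobin, rose 10.4-fold (3.38 ± 0.36 SE, limma adjusted p = 0.0223). Orm3 and Orm2, orosomucoids, were at least 4.6-fold and at least 8.81-fold higher, with 0 and 1 of 3 contralateral arrays above background. The list medians within mice 495, 485 and 512 were 2.63, 3.23 and -0.22, and 14 of 27 genes were below 0 in mouse 512. Lcn2, for example, had differences of 5.22, 6.81 and -0.22 (adjusted p = 0.11). With mouse 512 left out 22 acute phase genes rose and 3 fell, and without its contralateral kidney 15 rose and 0 fell. With no filter on dim probes 3 rose and 0 fell. Over all genes these settings called 11022 and 11034 of 19598 and 2662 of 28467, so the counts moved with the totals.

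Signals known to act on the cluster were measured through 2 lists. Of 19 measured genes of the interleukin-6 family and STAT3 feedback, 5 rose and 1 fell (median 0.70). That share is near the background of 30.7%. Il6 was at least 3.98-fold higher (2 of 3 contralateral arrays above background, limma adjusted p = 0.0267), Il11 rose by 1.82 ± 0.36 SE (adjusted p = 0.0356) and Socs1, a feedback inhibitor, by 1.93 ± 0.21 (adjusted p = 0.0228), while the receptor gene Lifr fell by 1.71 on the log2 scale (adjusted p = 0.0221). Stat3 itself had 0.55 ± 0.24 (adjusted p = 0.146) and its feedback gene Socs3 2.99 ± 0.75 (adjusted p = 0.0503).
Of 11 measured NF-kappaB genes, 6 rose and 0 fell (median 1.79), against 16.0% and 14.7% of all genes. Those that rose included Tnf (at least 7.20-fold, 2 of 3 contralateral arrays above background, limma adjusted p = 0.0329), Il1b (2.77 ± 0.24 SE, adjusted p = 0.0221) and Tnfaip3 (2.60 ± 0.64, adjusted p = 0.0494), a feedback inhibitor. Both lists had lower medians in mouse 512 (0.16 and 0.67) than in mice 495 and 485. Without mouse 512, 13 and 11 genes of the 2 lists rose, and without its contralateral kidney 11 of each. With no filter on dim probes 2 and 3 rose. The totals over all genes in these settings were again 11022 and 11034 of 19598 and 2662 of 28467.

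**Figure D3:**
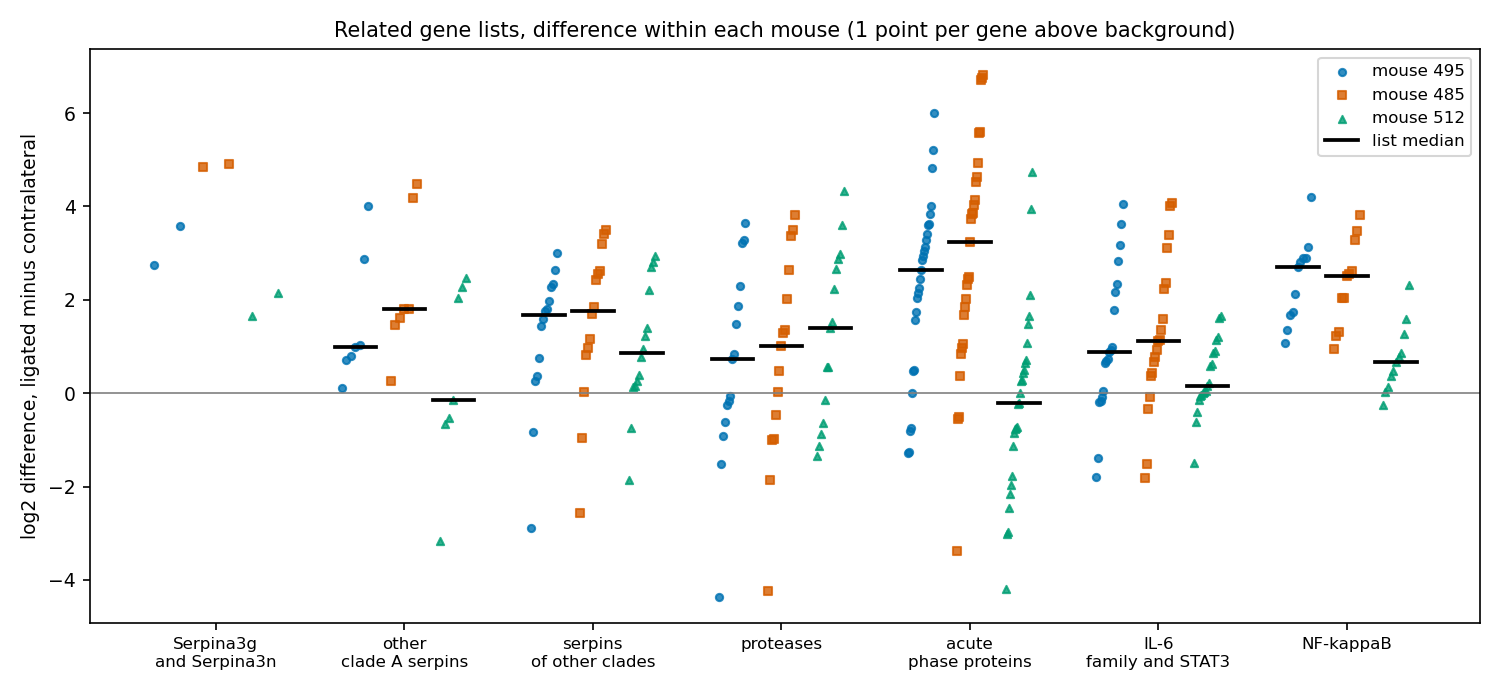
Log2 difference (ligated minus contralateral) within each of 3 mice for Serpina3g and Serpina3n and for 6 related gene lists, 1 point per gene above background, with the list median of each mouse as a bar. The acute phase median was -0.22 in mouse 512 against 2.63 and 3.23 in mice 495 and 485.

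Markers of the cells that could hold these transcripts moved as well. Summed marker levels over the contralateral kidneys ran from 18.0 to 51.4 for macrophages, 0.600 to 0.903 for T and NK cells, 1.05 to 2.18 for neutrophils and 14.4 to 70.1 for fibroblasts and myofibroblasts. Over the ligated kidneys they ran from 199 to 230, 2.80 to 4.98, 1.87 to 11 and 133 to 265. Only the neutrophil sums of the groups overlapped. Of the measured markers, 9 of 10 rose for macrophages (C1qa 3.40 ± 0.33 SE, limma adjusted p = 0.0221), 6 of 9 for T and NK cells (Cd3d 3.16 ± 0.19, adjusted p = 0.0221), 4 of 7 for neutrophils (Csf3r 2.70 ± 0.37, adjusted p = 0.0261) and 8 of 10 for fibroblasts (Col1a1 3.86 ± 0.91, adjusted p = 0.0463). In each list 0 fell. Over all genes 16.0% were called higher and 14.7% lower. Csf3r was above background on 2 of 3 contralateral arrays and entered the fit through the ligated group, in which it is high. Without the contralateral kidney of mouse 512, 2 neutrophil markers rose, as among genes above background on all 6 arrays, and with no filter on dim probes 2 neutrophil and 5 fibroblast markers. Like Serpina3g and Serpina3n, the macrophage, fibroblast, and T and NK cell sums were highest among contralateral kidneys in mouse 512. The neutrophil sum was lowest there. The part of these cells in the rise of Serpina3g and Serpina3n was not tested.

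Markers of tubule epithelium were lower in ligated kidneys, though not in every pair. Over all genes 14.7% were called lower. Proximal tubule markers fell in 6 of 10 (Slc22a6, an organic anion transporter, -3.60 ± 0.79 SE, limma adjusted p = 0.0408), from sums of 573 to 1953 in contralateral to 323 to 432 in ligated kidneys, and all 10 were above background on every array, so the labelled tissue's main epithelium was present. Distal tubule and collecting duct markers fell in 7 of 10 (Aqp2, a water channel, -2.88 ± 0.15, adjusted p = 0.0221), and their sums overlapped, at 113 to 349 and 116 to 158. In mouse 512 that sum was higher in the ligated kidney, at 158 against 113, where Serpina3a and Serpina3b were lower. Without mouse 512 all 10 markers of each list fell, and with no filter on dim probes 3 proximal and 5 distal ones. The contralateral kidney of mouse 512 had the lowest sum of both lists, as it had the lowest contralateral level of Serpina3a and Serpina3b. In RNA from mixed cells, fewer cells of a type and less RNA per cell cannot be told apart, and the part of tubule cells in the fall of Serpina3a and Serpina3b was not tested.

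Liver is the main known source of Serpina3k and of circulating clade A serpins, and hepatocyte markers were measured for that reason. Of 10 hepatocyte markers, 4 were above background, 0 rose and 1 fell, against 16.0% and 14.7% of all genes. The 1 that fell, Cyp2c29, was at least 3.95-fold lower (2 of 3 ligated arrays above background, limma adjusted p = 0.0237). It entered the fit through the contralateral group, in which it is high. Among genes above background on all 6 arrays 0 hepatocyte markers fell. Apob and Cyp3a11 were above background on all 6 arrays and Alb on all 3 contralateral arrays, while Ahsg, Apoa2, Cps1, Mup3, Ttr and F2 were not above background in either whole group. Hepatocyte marker sums ran from 0.396 to 1.1 in contralateral and from 0.335 to 1.13 in ligated kidneys, and the part of liver RNA in the members' levels was not tested. Endothelial markers rose in 5 of 10 (Cdh5 1.31 ± 0.15, adjusted p = 0.0233), and their sums ran from 19.5 to 26.2 and from 29.1 to 35. With spike-in centring 1 of the 10 rose, and with no filter 2.

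Each list call rests on few animals. With mouse 495 or mouse 485 left out, the fit called 0 of 19598 genes (4949 and 4952 at an unadjusted p under 0.05, of which there were 9833 with all mice), and with mouse 512 left out it called 11022. Mice 495 and 485 shared slide 1 and mouse 512 was alone on slide 2, so slide and animal cannot be told apart. Within slide 1 the mean differences were 4.22 for Serpina3g, 3.84 for Serpina3n, -2.60 for Serpina3b, -1.80 for Serpina3a and -0.49 for Serpina3m. On slide 2 the single differences of mouse 512 were 2.14, 1.65, -1.95, -1.39 and 0.44, in the same order of genes.

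**Figure D4:**
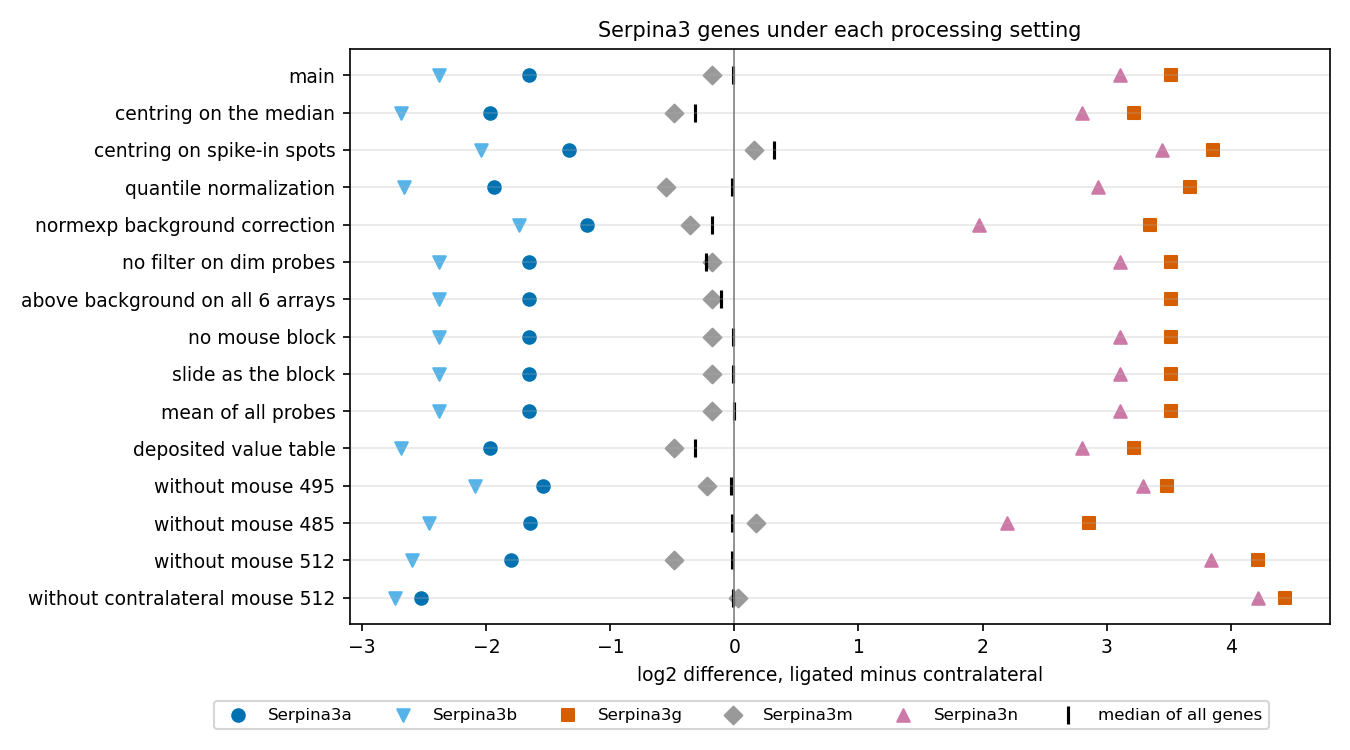
Mean log2 difference (ligated minus contralateral) of the 5 Serpina3 members above background under each processing setting, with the median of all genes as a black tick. Serpina3g stays between 2.86 and 4.44 and Serpina3n between 1.97 and 4.22, Serpina3b between -2.74 and -1.74 and Serpina3a between -2.53 and -1.19, while Serpina3m lies on either side of 0.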

How the data were processed

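Both kidneys of 3 mice were measured on 6 Agilent mouse arrays (design 014868). For each array the authors deposited the scanner output, in which the processed signal is a background-subtracted linear intensity from Feature Extraction 10.5.1.1, per the file headers, while the submitters' processing notes name version 9.1. Spot means and local backgrounds are raw intensities and the well-above-background and outlier flags are 0 or 1, per the file headers. The authors also deposited a value table that holds a linear ratio of each processed signal to the median of its array. Probe positions are mm8, per the file headers.

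Control spots were left out (43379 remained), spots flagged as outliers (43 to 79 per array) were removed, and 0 were saturated. Between 65.7% and 69.5% of spots were well above background on contralateral arrays and 72.1% to 74.7% on ligated ones. Log2 processed signal was centred on each array's 75th percentile. Of 41174 probes, 24 were left out and 24367 took a current symbol through a RefSeq accession. The fit used probes above background on all arrays of a group, the brightest per gene (19598 genes). limma 3.58.1 in R 4.3.3 was fitted with the mouse as a block (2 residual and 2.055 prior degrees of freedom, two-sided, Benjamini-Hochberg, threshold 0.05), and the fit was tested on simulated data. The mouse numbers in the labels give the pairing. Deviations from the group means correlated within mice at r = 0.194 (495), 0.481 (485) and 0.271 (512). The number of arrays limits the precision.

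Where a probe was below background on arrays of the dimmer group, "at least" gives the fold against the higher of its own level and the lowest level above background. Named were the members, the other cluster genes on the array, the 3 genes most like each member, and genes from each list. From a list, the 3 called genes with the largest change (or the smallest p where none passed) were selected. For each list of cell type markers only 1 of the genes so selected is printed, not always the one with the largest change. Gzmb, Prss8, Tmprss2, Ctsb, Ctsl, Lcn2, Lifr, Stat3, Socs3, Alb, Apob, Cyp3a11 and the list genes named as not above background were chosen after their values were seen. 1 gene list, counted in the totals of list genes, is not reported here. Members and lists were chosen with earlier results of these data known. Alternatives covered the scaling, background correction, dim-probe filter, block, slide, probe choice, empirical Bayes trend, the deposited table and each mouse. Leaving out the contralateral array of mouse 512 was added after seeing the data.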

Additional observations from a re-analysis of the deposited data

How the results depend on the processing

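Serpina3g and Serpina3n stayed above 0 and Serpina3a and Serpina3b below 0 under every alternative run, except that Serpina3n had no value where genes had to be above background on all 6 arrays. Of 69 member values under alternatives, 7 moved by more than the spread over mice. The 69 include values that could not move. Settings that changed only the dim-probe filter, the block or the probe choice left each member's mean difference as it was. Each measured member has 1 probe, and each mouse gave both kidneys. The deposited value table repeated the values of median centring. Serpina3a had -1.97 with median centring and with the deposited value table, -1.33 with spike-in centring, -1.94 with quantile normalization, -1.19 with normexp and -2.53 without the contralateral kidney of mouse 512. Leaving out 1 mouse gave Serpina3a -1.80 to -1.54. Serpina3b had -1.74 with normexp. The median over the measured members was -0.18 and became -0.92 on genes above background on all 6 arrays, where Serpina3n drops out. Serpina3m, on either side of 0, ran from -0.55 to 0.17.

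Genes changed numbered 6019 (3135 higher, 2884 lower). Spike-in centring gave 3042 (2388 and 654), no filter on dim probes 2662 (1760 and 902 of 28467 genes), median centring 2561 and 5938, normexp 1992 and 2787, and leaving out 1 mouse 0 to 11022. Without the contralateral kidney of mouse 512 there were 11034. The median of all genes shifted to -0.32 with median centring, 0.32 with spike-in centring, -0.18 with normexp and -0.23 with no filter. List genes called numbered 90, 59 with no filter and 0 to 148 with 1 mouse left out. Without the replicate block, in an unpaired fit, 5538 genes were called (2749 higher and 2789 lower), and 86 list genes. The cause of these changes was not tested, beyond the smaller number of samples or genes in a setting. Dim probes limit Serpina3k, at background on all arrays, and Serpina3n in the contralateral kidney of mouse 485.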
